A study of Mus musculus with 23 samples.

Results

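The transcriptome of brown adipose tissue (BAT) lacking Mcu, the gene for the pore of the mitochondrial calcium uniporter, was compared with that of control BAT in mice exposed to cold. The comparison holds 11 of the 23 mice of the study, the 6 BAT-Mcu-KO and the 5 control mice kept at 4°C, which were chosen by the genotype and temperature in their sample labels. The 12 mice at room temperature (RT), 6 of each genotype, were in the same statistical model. They share in its estimate of the spread, on which each p-value at 4°C rests, and their values are given as a reference. All mice were males aged 8 to 12 weeks on a largely C57BL/6 background, and all carried Mcu fl/fl alleles, in which loxP sites flank exon 2. The floxed line came from stem cells of a mixed background and was crossed with C57BL/6J, and the Cre line was a B6.FVB strain. BAT-Mcu-KO mice (Mcu fl/fl, Ucp1-Cre) also carried a Cre recombinase driven by the Ucp1 promoter, which the controls lacked, and are also called knockout mice. Mice at 4°C were housed singly for 6 h without bedding or food. The RT mice were kept at RT for 6 h, and the paper does not state whether those sequenced had food or were housed singly. Cre acts only in cells in which the Ucp1 promoter is or has been active, so that the other cells of the tissue keep Mcu, and RNA was taken from whole BAT, in which fewer cells of a type and less RNA per cell cannot be told apart.

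The uniporter lets calcium enter the mitochondrial matrix, where it stimulates several dehydrogenases. Cold activates BAT through noradrenaline and cAMP, which induce thermogenic genes and set free fatty acids to be oxidised. The integrated stress response (ISR) is a second program of the cell, in which phosphorylation of the initiation factor eIF2 favours the translation of ATF4, a transcription factor that induces genes of amino acid import, amino acid and one-carbon metabolism and tRNA charging, together with secreted factors such as FGF21.

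Values are normalized counts, the reads of a gene divided by the size factor of its library. The reads counted per library were 7129271 to 18728637 in control and 8336445 to 21006347 in knockout mice at 4°C. The summed normalized count of 8 brown adipocyte markers was 268088 to 325500 in control and 286205 to 320185 in knockout mice, so that the tissue matched its label in every mouse. That of 18 skeletal muscle markers was 1715 to 69397 in control and 1728 to 17489 in knockout mice, highest in control mice 2 (69397) and 5 (60246). Control mouse 1 had the fewest reads and lay farthest from the others on the first principal component of the 11 mice (-120.5, against -45.1 to 65.4).

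Exon 2 of Mcu, the stretch removed by Cre, is coding throughout. It lies at chr10:59491087-59491156 of GRCm38 (mm10), on the minus strand, and is 70 bases long, which is no multiple of 3. Its sequence is shown because the knockout consists of its loss.
Mcu exon 2: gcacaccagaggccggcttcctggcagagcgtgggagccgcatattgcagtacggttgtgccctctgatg
It makes up 2.44% of the 2872 bases of the transcript, and reads on the other exons were counted whether or not exon 2 was lost. In the cold the mean normalized count of Mcu was 107 ± 26.8 (SD) in the 5 control mice and 33.9 ± 6.60 in the 6 knockout mice. The groups did not overlap, which checks the labels, and the log2 fold change was -1.61 (SE 0.23, limma adjusted p = 0.00367, by the Benjamini-Hochberg method over 14651 genes).

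Besides Mcu, few genes differed by genotype. At an adjusted p under 0.05, limma called 11 of 14651 genes (0.0751%), 6 of them higher (0.041%) and 5 lower (0.0341%) in knockout mice. Over all genes 7508 had positive and 7143 negative log2 fold changes, and in 280 (1.91%) the difference reached 2-fold. Before adjustment, 1023 genes (6.98%) had a p under 0.05, 611 of them higher (4.17%) and 412 lower (2.81%), and the median over all genes was a log2 fold change of 0.0064. In 57 genes (0.389%) every knockout mouse was above every control mouse, and in 43 (0.293%) every one was below. Without control mouse 2 limma called 3 genes, without control mouse 5 it called 7, without knockout mouse 4 it called 6, and without both control mice 2 and 5 it called 2, of which 1, Mcu, was among the 11. The calls also rest on the spread of the RT mice. With only the 2 groups at 4°C in the fit limma called 2 genes, Mcu and Gsta3. The rest of the 11 then had adjusted p-values of 0.243 to 0.480 at the same log2 fold changes.

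Atf4, the transcription factor at the centre of the ISR, fell in knockout BAT. The 5 control mice had normalized counts of 2978, 3015, 2769, 3071 and 3128 and the 6 knockout mice had 1554, 2218, 2207, 2191, 1417 and 1947. The control mice had an SD of 137, and the highest knockout mouse was below the lowest control mouse. On the log2 scale the difference was -0.66 (SE 0.11, limma adjusted p = 0.0151), or 0.633 times the control level. At RT, where the level was 610 in control and 515 in knockout mice, the log2 fold change was -0.25 (SE 0.10, limma unadjusted p = 0.026, adjusted p = 0.940). Atf4 lies on chromosome 15 from 80255184 to 80257541. It was called under each of the 11 omissions of a single mouse, but with only the 2 groups at 4°C in the fit the adjusted p was 0.243 (limma) at the same log2 fold change, and without both control mice 2 and 5, those with the most muscle transcripts, its adjusted p was 0.161 at a log2 fold change of -0.63.

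Mthfd2, the mitochondrial enzyme of folate-dependent one-carbon metabolism and a known ATF4 target, showed the largest fall of the called genes. Control mice had normalized counts of 178, 209, 156, 157 and 344, and knockout mice had 34.8, 114, 78.3, 85.1, 29.4 and 65.9. No knockout mouse reached the lowest control mouse, and control mouse 5 stood above the others. The log2 fold change was -1.69 (SE 0.30, limma adjusted p = 0.0151). Without control mouse 2 or 5 the adjusted p was 0.058 and 0.0798, with log2 fold changes of -1.67 and -1.49. A predicted gene, Gm43890, overlaps Mthfd2, and since reads were counted irrespective of strand, reads from the shared stretch cannot be assigned.

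Most other core genes of the ISR lay on the same side as Atf4, below the threshold for single genes. The core ISR list holds transcription factors and feedback genes and also other genes tied to the ISR, such as Fgf21, Chac1 and Vldlr. Of its 20 genes 19 were measured, and 16 of them had negative log2 fold changes, with a median of -0.30 against 0.0064 for all genes. Of the 19, 1 was called (Atf4), and 7 had an unadjusted p under 0.05, all 7 of them lower, against 2.81% of all genes. In 3 (Atf4, Trib3 and Atf3) every knockout mouse was below every control mouse, against 0.293% of all genes. At RT the median of the same 19 genes was -0.02, and 2 of them had an unadjusted p under 0.05 on the lower side, against 332 of all 14651 genes.

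Before the values of these genes, the promoters of 3 of them and of Asns, an amino acid synthesis gene, are shown, because they hold the letters of the C/EBP-ATF response element, the site at which ATF4 and its partners are known to bind. The match of Trib3 lies after the start site, so its promoter is not shown. The letters searched were TGATGNAA and their reverse complement TTNCATCA, on both strands, from 250 bases before to 50 bases after the start site of RefSeq genes (GRCm38.p6). Each sequence is the 250 bases before the start site, 5′ to 3′ on the strand of the gene, with the match in capitals. For Fgf21 (chr7:45615491-45615740, minus strand) the first base of the match is at -139 from the start site, for Atf3 (chr1:191183334-191183583, minus strand) at -110, for Chac1 (chr2:119350992-119351241, plus strand) at -193 and for Asns (chr6:7693210-7693459, minus strand) at -23.
Fgf21: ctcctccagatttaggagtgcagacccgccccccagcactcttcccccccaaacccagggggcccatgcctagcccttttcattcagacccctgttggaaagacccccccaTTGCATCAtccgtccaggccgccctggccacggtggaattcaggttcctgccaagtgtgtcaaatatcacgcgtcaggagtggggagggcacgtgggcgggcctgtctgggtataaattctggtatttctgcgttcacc
Atf3: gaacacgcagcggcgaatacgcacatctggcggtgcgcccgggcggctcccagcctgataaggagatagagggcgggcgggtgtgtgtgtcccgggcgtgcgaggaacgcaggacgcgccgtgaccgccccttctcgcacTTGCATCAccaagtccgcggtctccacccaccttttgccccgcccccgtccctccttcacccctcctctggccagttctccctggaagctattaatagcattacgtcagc
Chac1: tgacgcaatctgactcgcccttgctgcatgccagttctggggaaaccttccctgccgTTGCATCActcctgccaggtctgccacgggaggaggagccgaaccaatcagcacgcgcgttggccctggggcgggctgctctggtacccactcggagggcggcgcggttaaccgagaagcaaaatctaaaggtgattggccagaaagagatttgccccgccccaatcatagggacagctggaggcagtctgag
Asns: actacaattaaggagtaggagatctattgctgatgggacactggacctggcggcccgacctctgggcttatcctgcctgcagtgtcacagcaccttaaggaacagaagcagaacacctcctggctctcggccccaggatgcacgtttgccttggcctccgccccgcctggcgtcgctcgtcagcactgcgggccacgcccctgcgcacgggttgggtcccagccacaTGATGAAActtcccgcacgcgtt
Matches were found in 6 of the 17 core ISR genes with a promoter in the table (Fgf21, Trib3, Atf3, Chac1, Nupr1 and Vldlr), in 5 of 15 cytosolic tRNA synthetase genes, in 2 of 9 amino acid synthesis genes and in 3 of 15 amino acid transporter genes. All promoters of the table held one in 3.97% of 32851 cases, and genes tested here in 2.74% of 9982. None was found in 15 one-carbon genes, Mthfd2 among them, or in 18 genes of branched-chain amino acid breakdown, which says only that these letters are not in the window. A match is a string of letters and not a measured binding site.

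Fgf21, an endocrine product of the ISR (the paper names GDF15 as another), had the most negative log2 fold change of the core ISR genes. Its normalized count was 60.7, 117, 94.6, 66.8 and 205 in control mice and 3.29, 68.4, 14.4, 22.0, 15.5 and 33.4 in knockout mice. Knockout mouse 2 was above 2 control mice, and the other 5 were below all controls. On the log2 scale the difference was -2.33 (SE 0.62, unadjusted p = 0.00095, limma adjusted p = 0.284), so that Fgf21 was not called. At RT it was near the floor of detection in both genotypes, with means of 2.28 and 2.71.

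Atf3, a factor induced downstream of ATF4, and Trib3, a pseudokinase that inhibits ATF4 in a feedback loop, separated the genotypes in every mouse without passing the adjusted threshold. The normalized count of Atf3 was 771, 455, 342, 334 and 356 in control and 158, 228, 297, 226, 168 and 216 in knockout mice. Its log2 fold change was -1.02 (SE 0.37, limma adjusted p = 0.570). For Trib3 control mice had 287, 287, 274, 281 and 437, and knockout mice had 177, 262, 224, 256, 120 and 238. This was a log2 fold change of -0.58 (SE 0.20, limma adjusted p = 0.533). Knockout mouse 5 had the lowest value of all mice in Trib3, and in Atf3 mouse 1 had it. Chac1, which degrades glutathione, had a mean of 172 ± 64.8 (SD) in the 5 control and 80.6 ± 40.5 in the 6 knockout mice, and 5 of the 6 were below every control mouse (log2 fold change -1.18, SE 0.44, limma adjusted p = 0.585). Ddit3, which encodes CHOP, had a log2 fold change of -0.48 (SE 0.17) and Atf5 one of -0.76 (SE 0.31), neither of them called (adjusted p = 0.531 and 0.626, limma). Ppp1r15a, the phosphatase subunit that reverses eIF2 phosphorylation, had -0.25 (SE 0.25). Not all members leaned the same way, as Ddit4, an inhibitor of mTORC1 that is also induced by other stresses, had a log2 fold change of 0.34 (SE 0.45).

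**Figure D1:**
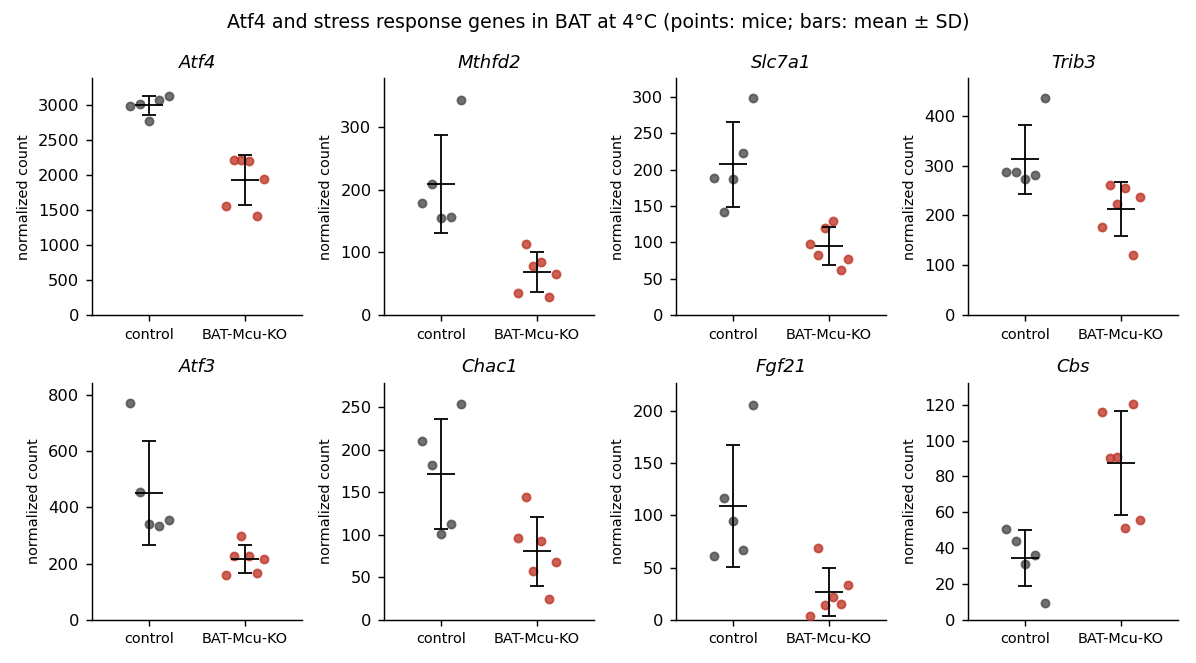
Normalized counts of Atf4, Mthfd2, Slc7a1, Trib3, Atf3, Chac1, Fgf21 and Cbs in each of the 5 control and 6 knockout mice at 4°C (points), with mean ± SD (bars). In Atf4, Mthfd2, Slc7a1, Trib3 and Atf3 all knockout mice lie below all control mice, in Cbs all lie above, and of these genes only Atf4 and Mthfd2 passed the adjusted threshold by limma (Slc7a1 also did by DESeq2).

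Genes for amino acid import and synthesis were divided. Of 23 listed plasma membrane transporters 19 were measured, 9 higher and 10 lower (median -0.12). At an unadjusted p under 0.05 were 4 on the lower side and 1 on the higher side, against 2.81% and 4.17% of all genes. The sign of the median turned in 3 of 24 alternative analyses, and without control mice 2 and 5 it was 0.06. On the lower side 1 gene in place of 4 was then at an unadjusted p under 0.05, against 2.05% of all genes. Slc7a1, the carrier of arginine and lysine (CAT1), had normalized counts of 188, 141, 187, 223 and 298 in control and 97.9, 82.4, 120, 130, 62.0 and 76.8 in knockout mice, with no overlap. Its log2 fold change was -1.12 (SE 0.28, limma adjusted p = 0.258), while the DESeq2 Wald test called it (adjusted p = 0.00545). Slc38a2, the glutamine and alanine carrier SNAT2, had 1791 ± 208 in control and 1372 ± 145 in knockout mice (SD), again with no overlap (log2 fold change -0.38, SE 0.15, limma adjusted p = 0.591). Slc7a6 (log2 fold change -0.27) and the cystine carrier Slc7a11 (-1.44) were also on the lower side, and the leucine carrier Slc43a2 on the higher side with 0.47, none of them called.

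Among 12 measured enzymes of amino acid synthesis and transsulfuration, 8 were lower and 4 higher, and their median was -0.12. At an unadjusted p under 0.05 were 3 of the lower genes and 1 of the higher genes, against 2.81% and 4.17% of all genes. Without control mice 2 and 5 there were 1 and 0, against 2.05% and 3.62% of all genes. Aldh18a1, which makes the precursor of proline, had normalized counts of 40.5, 25.8, 28.6, 41.1 and 60.9 in control and 7.89, 6.14, 20.8, 29.3, 10.1 and 19.2 in knockout mice (log2 fold change -1.41, SE 0.37, limma adjusted p = 0.281). Knockout mouse 4 was above 2 control mice and the other 5 were below all of them. Cth, the second enzyme of transsulfuration, had a log2 fold change of -0.71 (SE 0.25) and Asns, which makes asparagine, one of -0.29 (SE 0.11), with adjusted p-values of 0.553 and 0.570 (limma).

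Cbs, the first enzyme of transsulfuration, lay on the opposite side. Its normalized count was 50.6, 44.0, 31.1, 36.0 and 9.62 in control and 116, 90.3, 91.1, 51.2, 120 and 55.9 in knockout mice, each of the latter above every control mouse. On the log2 scale the difference was 1.43 (SE 0.51, limma adjusted p = 0.562), and at RT, at means of 6.64 and 15.1, it was 1.26 (SE 0.49). Neither value passed the threshold.

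Mthfd2 was not matched by the rest of one-carbon metabolism. Of 18 measured serine and one-carbon genes 9 were higher and 9 lower, with a median of 0.04. An unadjusted p under 0.05 was found in 2, both lower, against 2.81% of all genes. The second was Psat1, of serine synthesis, with normalized counts of 93.0, 60.7, 69.7, 58.8 and 175 in control and 58.5, 51.7, 35.2, 34.8, 27.1 and 72.6 in knockout mice (log2 fold change -0.91, SE 0.29, limma adjusted p = 0.479). Phgdh, the enzyme before it in the pathway, had a log2 fold change of 0.37 (SE 0.30).

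The cytosolic aminoacyl-tRNA synthetases, which charge tRNAs with amino acids, differed by small amounts. Of 23 measured genes 18 were lower in knockout mice, the median log2 fold change was -0.09, and 8 had an unadjusted p under 0.05, all lower, against 2.81% of all genes. None was called. Nars had 1820, 1753, 1796, 1717 and 1886 in control mice and 1246, 1737, 1582, 1434, 1217 and 1694 in knockout mice (log2 fold change -0.29, SE 0.09, limma adjusted p = 0.427). Knockout mouse 2 reached the control range and the other 5 did not. Cars (log2 fold change -0.42, SE 0.14), Aars (-0.25, SE 0.08) and Tars (-0.25, SE 0.08) had the same pattern of 5 mice below all controls. Their adjusted p-values were 0.484 to 0.526 (limma). The mitochondrial synthetases, 17 genes, had a median of 0.07, with 2 genes at an unadjusted p under 0.05, both higher, against 4.17% of all genes.

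Taken mouse by mouse, the median of the core ISR list was lower in each of the knockout mice than in every control mouse. The list was chosen with earlier results of these data known, so this is a description. The control mice centre on their own mean by construction, which the knockout mice do not. Relative to the control mean, the median log2 difference over the 19 genes was -0.0058, 0.03, -0.08, -0.07 and 0.07 in the 5 control mice and -0.55, -0.20, -0.44, -0.27, -0.38 and -0.39 in the 6 knockout mice. The highest knockout mouse, mouse 2, was below the lowest control mouse, mouse 3. For the cytosolic synthetases the same measure was -0.09 to 0.08 in control and -0.22 to -0.02 in knockout mice, and the groups overlapped. Over the 24 alternative analyses the median log2 fold change of the core ISR genes was between -0.44 and -0.22. Without control mice 2 and 5 it was -0.25, with 18 of 19 genes lower and 3 at an unadjusted p under 0.05, against 7 with all mice. That of the synthetases was then -0.07, with 3 genes at an unadjusted p under 0.05 in place of 8. All of these counts are of lower genes. Of all genes 2.05% were at such a p on the lower side without these mice, against 2.81% with all mice.

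**Figure D2:**
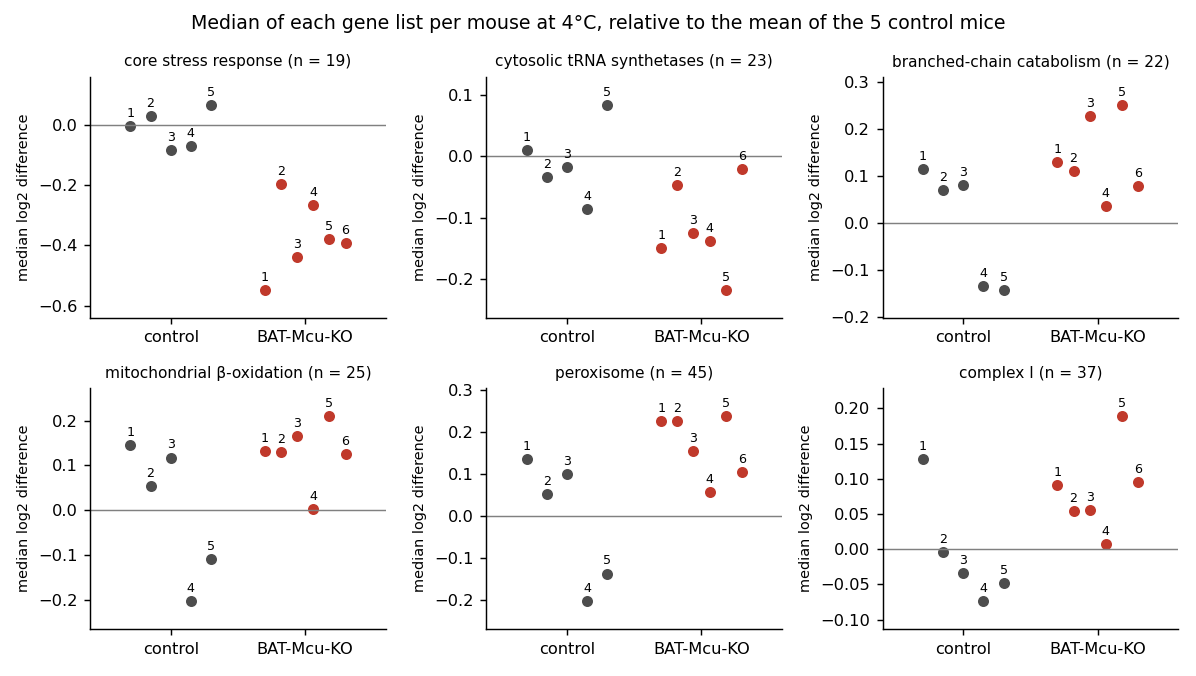
Median log2 difference of 6 gene lists from the mean of the 5 control mice, for each mouse at 4°C (points, numbered by replicate). The lists were chosen with earlier results of these data known. The core stress response list separates the genotypes (control -0.08 to 0.07, BAT-Mcu-KO -0.55 to -0.20), while in the lists of branched-chain catabolism, β-oxidation and the peroxisome control mice 4 and 5 lie lowest and control mice 1 to 3 lie within or near the BAT-Mcu-KO range.

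Tmed9 and Tram2, which serve the early secretory pathway, were the other called genes that fell. Tmed9, a cargo receptor between endoplasmic reticulum (ER) and Golgi (chromosome 13, 55573732 to 55597697), had normalized counts of 330, 439, 322, 360 and 346 in control and 187, 202, 252, 271, 241 and 228 in knockout mice, with no overlap. Its log2 fold change was -0.64 (SE 0.11, limma adjusted p = 0.0151), and without control mouse 2 the adjusted p was 0.0598. At RT the log2 fold change of Tmed9 was -0.27 (SE 0.11, limma unadjusted p = 0.018, adjusted p = 0.940). Tram2, a translocon protein linked to the synthesis of collagen (chromosome 1, 20996299 to 21079229), had 58.7, 54.6, 39.8, 62.4 and 67.4 in control and 21.0, 16.7, 14.4, 19.2, 26.3 and 41.7 in knockout mice. Only knockout mouse 6 was above a control mouse, mouse 3. The log2 fold change was -1.31 (SE 0.26, limma adjusted p = 0.0354), and at RT it was -1.08 (SE 0.24). The call of Tram2 was lost without any one of 9 of the 11 mice (all but control mouse 3 and knockout mouse 6), at adjusted p-values of 0.0555 to 0.130.

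The pathways around this pair of genes leaned in no one direction. Of 53 measured early secretory genes 24 were higher and 29 lower, with a median of -0.0074. Of 27 ER chaperone and unfolded protein response genes 14 were higher and 13 lower, with a median of 0.01. The exception by rank was Atf6, a sensor of unfolded protein in the ER, with 949, 1035, 854, 951 and 899 in control and 643, 769, 847, 748, 721 and 849 in knockout mice, without overlap (log2 fold change -0.30, SE 0.10, limma adjusted p = 0.526). Dnajb9, an ER chaperone induced by this response, had a log2 fold change of -0.28 (SE 0.12). Of the 29 collagen genes 23 were lower, with a median of -0.18, but none had an unadjusted p under 0.05. Cytosolic heat shock genes were lower in 15 of 21 cases (median -0.16), Hspa8 among them with -0.32 (SE 0.15), and none was called.

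Genes of peroxisomal lipid oxidation leaned the other way. Of 45 measured peroxisomal genes 39 had positive log2 fold changes, with a median of 0.14, and 4 had an unadjusted p under 0.05, all higher, against 4.17% of all genes. Cat, which encodes the peroxisomal catalase that breaks down hydrogen peroxide, was the one that was called. Its normalized count was 16121, 10711, 14716, 11603 and 10326 in control and 21860, 16477, 19974, 21979, 17557 and 15111 in knockout mice. Knockout mouse 6 was below control mouse 1, and the other 5 were above all controls. Cat rose with a log2 fold change of 0.58 (SE 0.11, limma adjusted p = 0.0354), against 0.16 (SE 0.11) at RT. Cat lies on chromosome 2 from 103453849 to 103485160. It lost the call without control mouse 2, 4 or 5 and without knockout mouse 1, 3, 4 or 5, at adjusted p-values of 0.0555 to 0.142.

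Ehhadh, the bifunctional enzyme of peroxisomal β-oxidation, had 6701, 3714, 4589, 4221 and 3497 in control and 9910, 5803, 8885, 20519, 5540 and 6520 in knockout mice. Knockout mouse 4 was far above the rest, and 3 of the 6 exceeded all controls. On the log2 scale the difference was 0.94 (SE 0.24, limma adjusted p = 0.253). Hacl1, which shortens branched and hydroxylated fatty acids, had a log2 fold change of 0.84 (SE 0.24) and the epoxide hydrolase Ephx2 one of 0.35 (SE 0.11), neither of them called (adjusted p = 0.356 and 0.455, limma).

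Mitochondrial fat and amino acid oxidation showed the same direction with smaller differences. Of 25 mitochondrial β-oxidation genes 23 were higher (median 0.10), and 6 had an unadjusted p under 0.05, all higher. Of 22 genes of branched-chain amino acid breakdown 19 were higher (median 0.13), and 7 had an unadjusted p under 0.05, all higher, where 4.17% of all genes were at such a p on the higher side. None of them was called. Eci1, an isomerase for unsaturated fatty acids, had 7682, 6747, 7220, 7130 and 6973 in control and 8240, 7822, 8299, 7955, 8707 and 8633 in knockout mice, all of the latter above all controls (log2 fold change 0.21, SE 0.08, limma adjusted p = 0.576). Acadm, the medium-chain acyl-CoA dehydrogenase, had 21889 ± 2816 and 25634 ± 2391 (SD), a log2 fold change of 0.23 (SE 0.10) with 4 of 6 mice above all controls. Hsd17b10, which acts in isoleucine breakdown, had 0.34 (SE 0.10, limma adjusted p = 0.395), Hibch, of valine breakdown, 0.22 (SE 0.08), Mccc1, of leucine breakdown, 0.20 (SE 0.08), and Ivd, also of leucine breakdown, 0.18 (SE 0.08).

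The machinery of respiration and of mitochondrial translation leaned up at 4°C by still smaller amounts. Of 37 nuclear-encoded complex I subunits 35 were higher (median 0.07), 2 of them with an unadjusted p under 0.05. Of 75 mitochondrial ribosomal proteins 63 were higher (median 0.08), 3 of them with an unadjusted p under 0.05, and the 31 genes of the citrate cycle and pyruvate dehydrogenase had 26 higher (median 0.08) and 3 with an unadjusted p under 0.05. These shares, 5.41%, 4.00% and 9.68%, stand beside 4.17% of all genes. Ndufs8, a subunit of complex I, had 6370, 6237, 6769, 5829 and 5948 in control and 7435, 7353, 7770, 6841, 7904 and 6969 in knockout mice, with no overlap (log2 fold change 0.24, SE 0.08, limma adjusted p = 0.528). Sucla2, of the citrate cycle, had a log2 fold change of 0.27 (SE 0.09), with 5 of 6 mice above all controls. Mrps28, of the small mitochondrial ribosomal subunit, had 0.26 (SE 0.10) and no overlap. Subunits of the proteasome were higher in 39 of 45 genes (median 0.08), Psma4 among them with 0.21 (SE 0.09). Complexes II to IV had a median of 0.05 over 28 genes, and cytosolic ribosomal proteins one of 0.03 over 79 genes. At RT most of these lists leaned down. Lower there were 30 of 37 complex I genes (median -0.11), 23 of 28 of complexes II to IV (-0.16) and 49 of 75 mitochondrial ribosomal genes (-0.06). Also lower at RT were 29 of 45 proteasome genes (-0.02) and 72 of 79 cytosolic ribosomal genes (-0.12), but only 10 of 31 citrate cycle genes (median 0.03).

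Mouse by mouse, the oxidative lists did not separate the genotypes. The median log2 difference of the 45 peroxisomal genes from the control mean was 0.14, 0.05, 0.10, -0.20 and -0.14 in the control mice and 0.23, 0.23, 0.15, 0.06, 0.24 and 0.10 in the knockout mice. Control mice 4 and 5 were the lowest, and control mice 1 and 3 lay within the BAT-Mcu-KO range. For mitochondrial β-oxidation the values were 0.15, 0.05, 0.12, -0.20 and -0.11 in control and 0.13, 0.13, 0.17, 0.0025, 0.21 and 0.12 in knockout mice, and the same pair of control mice was lowest. Without control mice 2 and 5 the peroxisomal median was 0.10, with 9 genes at an unadjusted p under 0.05 in place of 4, and without control mouse 1 it was 0.18, with 11 such genes. That of β-oxidation was 0.08 and 0.15 without these mice, with 1 and 8 such genes in place of 6, and that of branched-chain breakdown was 0.10 and 0.16, with 2 and 8 such genes in place of 7. For complex I the medians were 0.06 and 0.12 without these mice, with 2 such genes in each case. Without control mouse 1, 6 citrate cycle and 6 proteasome genes had an unadjusted p under 0.05 in place of 3 and 3, and without control mice 2 and 5 there were 2 and 1, and 1 mitochondrial ribosomal gene in place of 3. All these counts are of genes on the higher side. On that side 5.60% of all genes were at such a p without control mouse 1, against 4.17% with all mice. Without control mice 2 and 5 the share of all genes was 3.62%.

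**Figure D3:**
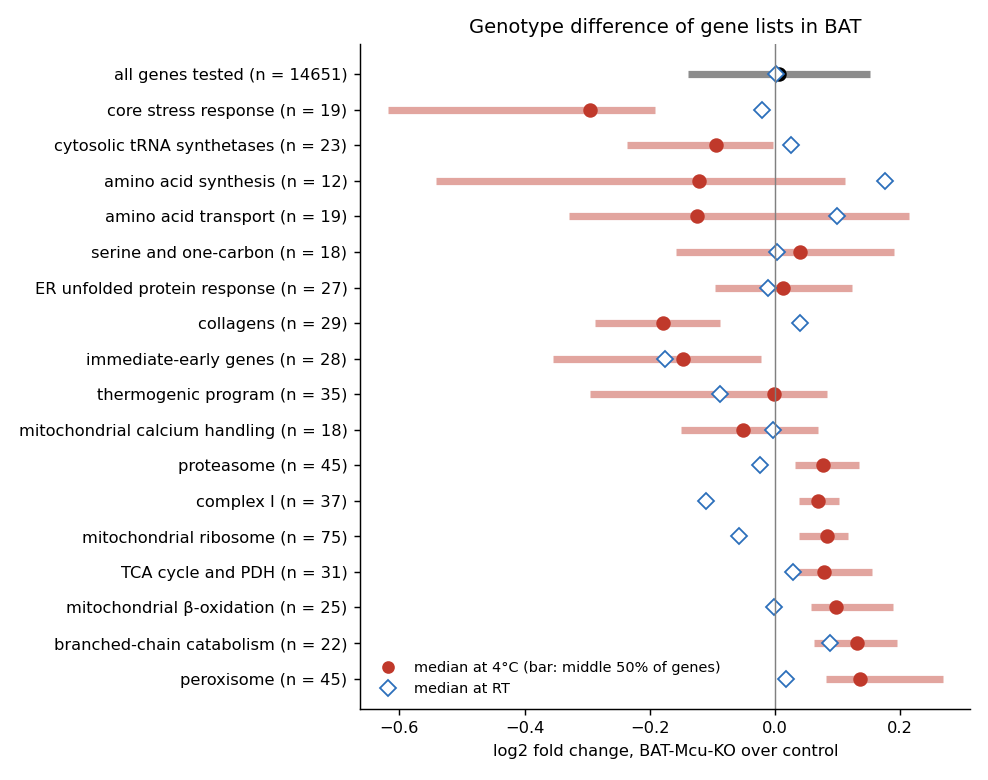
Median log2 fold change (BAT-Mcu-KO over control, x axis) of 17 selected gene lists and of all 14651 genes at 4°C (filled circles, with bars from the lower to the upper quartile of the genes of a list) and at RT (open diamonds). Of the lists plotted, the core stress response list lies lowest at 4°C (-0.30) and the peroxisome (0.14) and branched-chain lists (0.13) highest, and at RT the same lists had medians of -0.02, 0.02 and 0.09.

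Among thermogenic genes the regulator Ppargc1a separated the genotypes in every mouse and the effector Ucp1 did not. Ppargc1a, the coactivator of mitochondrial biogenesis, had 25446, 17496, 14141, 17610 and 21818 in control and 9754, 13022, 11776, 12608, 7278 and 9610 in knockout mice. All 6 were below all controls, and knockout mouse 5 was lowest. The log2 fold change of -0.85 (SE 0.23) did not pass the threshold (limma adjusted p = 0.284). Ucp1 had 140888 to 198043 in control and 145145 to 169144 in knockout mice, so that the ranges overlapped. Cidea, a lipid droplet protein of brown adipocytes, had 35906 to 42532 in control and 43977 to 48359 in knockout mice, without overlap (log2 fold change 0.22, SE 0.10, limma adjusted p = 0.677). Irf4, a cold-induced transcription factor, had 5917, 1680, 1650, 3661 and 856 in control and 7836, 3013, 5297, 14344, 2055 and 2304 in knockout mice, a log2 fold change of 1.04 whose SE was 0.47. Adrb1, the β1-adrenergic receptor, had a log2 fold change of -0.59 (SE 0.26, limma adjusted p = 0.677). Of the 35 thermogenic and brown adipocyte genes measured 17 were higher and 18 lower, with a median of -0.0013.

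Of 18 measured genes of mitochondrial calcium handling 13 were lower and 5 higher, with a median of -0.05, and Mcu was the only one called. Slc8b1, the exchanger that exports calcium from the matrix, had 64.7, 69.8, 72.2, 107 and 48.9 in control and 95.3, 117, 150, 103, 102 and 125 in knockout mice. Only control mouse 4 reached the BAT-Mcu-KO range, and the log2 fold change was 0.69 (SE 0.17, limma adjusted p = 0.211, and 0.0460 without that mouse). At RT the log2 fold change of Slc8b1 was 0.43 (SE 0.16). Slc25a24, a calcium-regulated carrier of ATP-Mg, had 145 ± 23.9 in control and 98.0 ± 31.9 in knockout mice (SD), a log2 fold change of -0.61 (SE 0.20, limma adjusted p = 0.528). The essential subunit Smdt1 (log2 fold change 0.10, SE 0.08) and the gatekeeper Micu2 (-0.17, SE 0.25) overlapped between genotypes. For Micu2 the value was -0.43 without control mouse 1 and 0.07 without control mice 2 and 5. In the ER, the calcium release channel Ryr2 had 24.3, 16.7, 13.7, 8.82 and 8.02 in control and 41.4, 25.4, 19.2, 32.9, 60.4 and 35.0 in knockout mice (log2 fold change 1.28, SE 0.41, limma adjusted p = 0.479). Oma1, a protease of the inner mitochondrial membrane that responds to mitochondrial stress, had 48.1 to 85.0 in control and 89.5 to 117 in knockout mice, with no overlap (log2 fold change 0.61, SE 0.17, limma adjusted p = 0.308).

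The remaining called genes rose in knockout mice. Btc, the EGF receptor ligand betacellulin (chromosome 5, 91357261 to 91402994), had 196, 250, 251, 243 and 149 in control and 457, 367, 761, 715, 280 and 420 in knockout mice, without overlap. It rose with a log2 fold change of 1.13 (SE 0.22, limma adjusted p = 0.0354). Pbld2 (chromosome 10, 63024315 to 63058813) had 64.7, 85.0, 87.1, 112 and 43.3 in control and 152, 128, 228, 202, 129 and 144 in knockout mice, again without overlap (log2 fold change 1.09, SE 0.20, limma adjusted p = 0.0201). S1pr5, a sphingosine 1-phosphate receptor (chromosome 9, 21242912 to 21248443), had 12.1, 9.11, 29.9, 18.4 and 16.8 in control and 43.4, 40.3, 28.8, 30.2, 63.5 and 45.1 in knockout mice, and control mouse 3 was above the lowest of them (log2 fold change 1.29, SE 0.25, limma adjusted p = 0.0354). The predicted genes Gm16143 and Gm48303 overlap Pbld2 and S1pr5. Their RT differences were smaller, with log2 fold changes of -0.0026 for Btc, 0.19 for Pbld2 and -0.11 for S1pr5. Each of these calls was lost when some single mice were left out. For Btc these were control mouse 1, 2 or 5 and knockout mouse 1, 3, 4 or 6 (adjusted p = 0.0555 to 0.130, limma), for Pbld2 control mouse 2 or 5 and knockout mouse 3 or 4 (0.058 to 0.0798), and for S1pr5 control mouse 1, 2 or 5 and knockout mouse 1, 2, 5 or 6 (0.0735 to 0.138).

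Gsta3, a glutathione transferase, and Elmod2 and Tbc1d9, the genes on either side of Ucp1 on chromosome 8, had positive log2 fold changes at both temperatures. Gsta3 had 24.2 to 37.7 in control and 52.6 to 95.1 in knockout mice at 4°C (log2 fold change 1.47, SE 0.26, limma adjusted p = 0.0151). The call was lost without control mouse 2 (adjusted p = 0.058) or knockout mouse 4 (0.0512), and Gm28836 overlaps the gene. Gsta3 lies on chromosome 1 from 21240589 to 21265661, close to the called gene Tram2 (20996299 to 21079229). Whether position plays a part in the differences of Gsta3 and Tram2 was not tested. Of 29 genes of glutathione transfer and synthesis Gsta3 was the one with an unadjusted p under 0.05, and the list had a median of 0.08. Without control mouse 1 there were 5 such genes, all higher, where 5.60% of all genes were at such a p on the higher side. Elmod2 had 1665, 900, 1115, 863 and 1075 in control and 3949, 3007, 2641, 3305, 1840 and 1401 in knockout mice, with knockout mouse 6 inside the control range (log2 fold change 1.22, SE 0.21, limma adjusted p = 0.0151, and 0.058 without control mouse 2). Tbc1d9 had 75.9 to 162 in control and 164 to 259 in knockout mice, and was called by DESeq2 (adjusted p = 0.00788) but not by limma. The transgene carries a copy of the Ucp1 promoter. The paper holds it likely that the transgene also contains Elmod2 and Tbc1d9 and so raises them, which was not tested here. Genotype and the presence of the transgene cannot be told apart in these groups, for any gene.

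**Figure D4:**
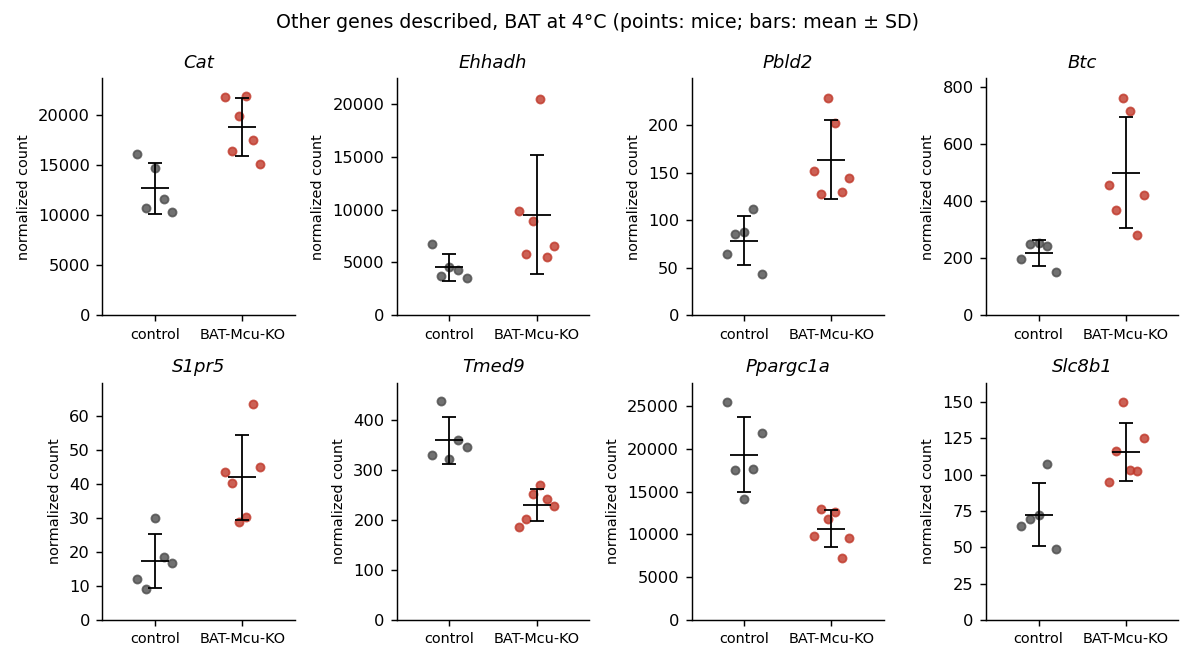
Normalized counts of 8 further genes in each of the 5 control and 6 knockout mice at 4°C (points), with mean ± SD (bars). Cat, Pbld2, Btc and S1pr5 were called higher and Tmed9 lower, while Ehhadh, Ppargc1a and Slc8b1 did not pass the adjusted threshold.

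The 12 genes next in order of p were not called by limma, while DESeq2 called 4 of them (Nupr1l, Lmo4, Wdr82 and Tarm1). Nupr1l, a paralog of the stress gene Nupr1, had 40.5, 18.2, 21.2, 23.5 and 24.1 in control and 63.8, 37.7, 49.5, 65.9, 52.7 and 39.2 in knockout mice (log2 fold change 1.01, SE 0.21, limma adjusted p = 0.0668, and 0.00834 without control mouse 1). Lmo4, a transcriptional cofactor, and Wdr82, a subunit of a histone methyltransferase complex, were lower in every knockout mouse than in every control mouse, with log2 fold changes of -0.57 (SE 0.12) and -0.50 (SE 0.11). The other 9 (Lrrc56, Zkscan4, N4bp2l1, Wdr66, Tarm1, H2afv, Slc8b1, Bcl7a and Fam122b) were higher, by 0.41 for H2afv to 1.34 for Wdr66 on the log2 scale. Tarm1, a receptor of myeloid cells, had its lowest BAT-Mcu-KO value (11.2) in mouse 1 and its highest (63.5) in mouse 5.

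Hmox1, which breaks down heme, had 3060, 646, 1208, 1422 and 2492 in control and 1092, 654, 470, 552, 564 and 1073 in knockout mice (log2 fold change -1.14, SE 0.29, limma adjusted p = 0.253, and 0.0461 without control mouse 2). Control mouse 2 lay inside the BAT-Mcu-KO range, and the other 4 control mice were above it. Of 41 genes of autophagy and lysosome control 5 had an unadjusted p under 0.05 on the higher side and 2 on the lower side, Map1lc3b, the autophagosome protein LC3B, having 0.34 (SE 0.10, limma adjusted p = 0.367). These counts stand beside 4.17% and 2.81% of all genes. Without control mice 2 and 5 they were 0 and 2, beside 3.62% and 2.05% of all genes. In the circadian clock, Bhlhe41 had a log2 fold change of -0.75 (SE 0.26) and Per3 one of 0.30 (SE 0.10), and the median of the 20 clock genes was -0.03. Immediate early genes and their feedback regulators were lower in 22 of 28 cases (median -0.15), and none had an unadjusted p under 0.05 on the lower side, a count that was 0 to 9 over the 24 alternatives. At RT 23 of the 28 were lower (median -0.18), 6 of them at an unadjusted p under 0.05, against 332 of all 14651 genes on the lower side. Of 19 measured genes of proliferation and DNA replication 13 were higher at 4°C, with a median of 0.30 (0.05 to 0.32 over the alternatives). Against 4.17% of all genes, 3 of the 19 had an unadjusted p under 0.05, all higher. These were Mcm7 (log2 fold change 0.32, SE 0.12) and Mcm4 (0.43, SE 0.18), of the replicative helicase, and the ubiquitin conjugating enzyme Ube2c (1.10, SE 0.50, at 0 to 18 reads per mouse), none of them called.

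Markers of other cell types are given beside these results. Of 14 measured macrophage and leukocyte markers 12 were higher in knockout mice (median 0.13), and their summed normalized count was 1295 to 2031 in control and 1630 to 2134 in knockout mice. Without control mouse 1, 4 of the 14 had an unadjusted p under 0.05 on the higher side and 1 on the lower side. The shares of all genes were then 5.60% and 4.15%. With all mice 1 of the 14 had such a p, on the higher side, against 4.17% of all genes. Lyz2, a macrophage lysozyme, was the one with an unadjusted p under 0.05 (log2 fold change 0.50, SE 0.17, limma adjusted p = 0.531). Of 18 muscle markers 9 were higher and 9 lower (median -0.05). All 18 were lower without control mouse 1 (median -1.24) and by DESeq2 with all mice (-1.85), and 17 were higher without control mice 2 and 5 (2.46). With the muscle level as a covariate 10 genes were called, and of the 11 only Tram2 was lost (adjusted p = 0.0586). The core ISR median was then -0.28 and the peroxisomal one 0.13. At RT all 18 muscle markers were higher in knockout mice (median 1.81). Of these 3 had an unadjusted p under 0.05, against 422 of all 14651 genes on the higher side. The median interaction of genotype and temperature of the muscle markers was -1.66. The part of the other cell types in the results, at 4°C, at RT and in the interaction, was not tested.

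The genotype differences at RT, from 12 other mice, are set beside those at 4°C. At RT limma called 7 genes (0.0478%), and 754 (5.15%) had an unadjusted p under 0.05. Across all 14651 genes the Pearson correlation of the log2 fold changes at RT and at 4°C was -0.12, a value across genes that are not independent replicates. Of the 49 genes with an unadjusted p under 0.001 at 4°C, 32 had the same sign at RT (65.3%), against 49.7% of all genes. Mcu (-1.61 at 4°C and -1.66 at RT), Gsta3 (1.47 and 1.74), Elmod2 (1.22 and 1.17) and Tram2 (-1.31 and -1.08) had like values. Of the ISR genes, Mthfd2 had 0.30 at RT, where its level was 28.2 in control and 33.4 in knockout mice, Atf3 had 0.70 and Chac1 had 0.71.

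The test of the difference itself, the interaction of genotype and temperature, called none of these genes by limma. In all 0 of 14651 genes passed, with 878 (5.99%) at an unadjusted p under 0.05 and a smallest adjusted p of 0.700, while DESeq2 called 28 genes and edgeR 0. Mthfd2 had an interaction of -1.99 on the log2 scale (SE 0.41, unadjusted p = 5.6e-05, limma), Atf3 one of -1.71 (unadjusted p = 0.0023), Slc7a1 -1.24 (0.0041), Fgf21 -2.55 (0.0066) and Atf4 -0.41 (0.011). On the higher side, Btc had 1.13 (0.00096), S1pr5 1.40 (0.00039) and Cat 0.41 (0.013). Of the 19 core ISR genes 5 had an interaction at an unadjusted p under 0.05. Complex I, with a median log2 fold change of 0.07 at 4°C and -0.11 at RT, had 1 such gene of 37.

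**Figure D5:**
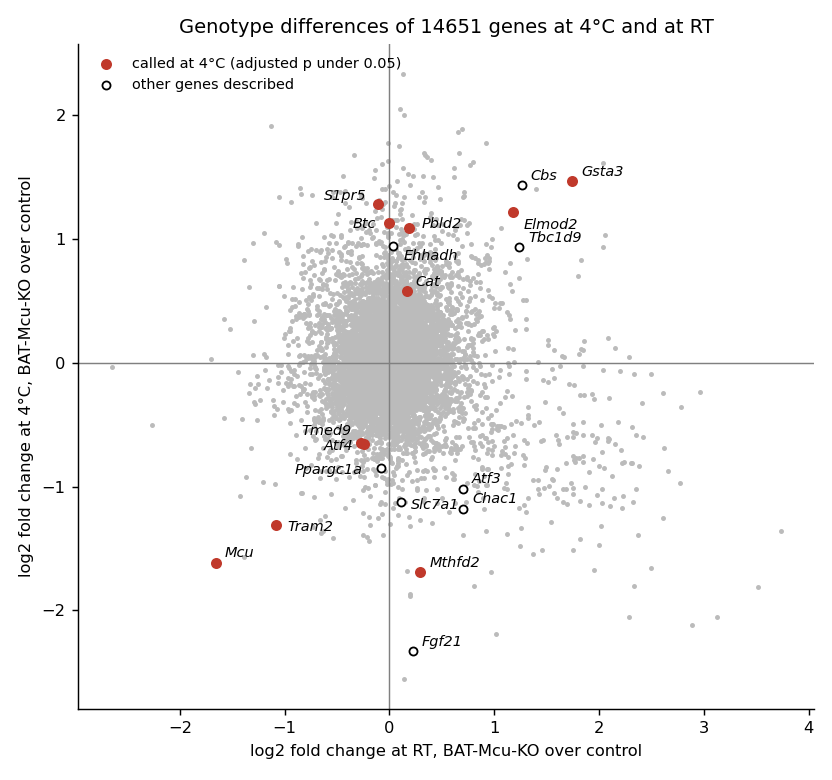
Log2 fold change between BAT-Mcu-KO and control mice at RT (x axis) and at 4°C (y axis) for 14651 genes (grey points). Filled red points are the 11 genes called at 4°C, and open points are 8 further genes described in the text. Mcu, Tram2, Elmod2 and Gsta3 lie near the diagonal, and Btc (-0.0026) and Mthfd2 (0.30) lie closer to 0 at RT than at 4°C.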

How the data were processed

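RNA from whole BAT of 23 mice was made into libraries by a Smart-seq2 method and sequenced in paired ends. The authors aligned reads to mm10 with STAR 2.4.0j, counted uniquely mapped exonic reads per gene irrespective of strand with HTSeq, kept genes with 8 or more reads in 6 or more samples, and divided the counts by DESeq2 size factors. The deposited signal values are these normalized counts for 14651 genes. A second deposited table holds fold changes and p-values of the authors' own comparisons and was not used.

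Here log2(normalized count + 1) was fitted with limma 3.58.1 (R 4.3.3), as the means of 4 groups over all 23 mice, with a variance trend and Benjamini-Hochberg adjustment over all genes, and an adjusted p under 0.05 was called. Fold changes on this scale understate those of low genes. Division of the values by the step of 1 read gave whole reads (within 0.01) for 100% of the values in every library, and these reads went into DESeq2 1.42.0 and edgeR 4.0.16 as alternatives. The floor of 3 reads was 1.97 to 6.07 normalized counts at 4°C. Each mouse is 1 sample, and the labels do not say that a replicate number marks a litter or pair. Alternatives were other pseudocounts, a filter on low values, other scalings, no variance trend, fits of the 2 groups alone, a replicate block, omission of each mouse and, chosen after seeing the data, a muscle marker covariate and omission of control mice 2 and 5.

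Genes named in the text were all those called at 4°C, the next 12 by p without predicted genes, up to 4 members of each of 62 lists with the smallest p, and any measured member of the lists on the uniporter, stress response, amino acid, one-carbon, thermogenic and citrate cycle genes and of the neighbourhood of the transgene promoter. Promoters were shown for the stress response and amino acid genes with the smallest p among those that hold the motif searched within the bases printed, before the start site. Members and lists were chosen with earlier results of these data known, so the counts over them are descriptions. Genes whose symbols had been turned into dates (19) were tested but not named. The scripts were tested on simulated data.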

Additional observations from a re-analysis of the deposited data

Results flagged for a closer look

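In 14 of 212 groups of 5 or 6 mice tested (6.60%), 1 mouse lay apart from the rest of its group by Dixon's criterion, which chance alone meets in about 1 in 20 groups. Control mouse 5 had the highest Mthfd2 (344, others 156 to 209) and Trib3 (437, others 274 to 287). Control mouse 1, the library with the fewest reads at 4°C, had the highest Nupr1l (40.5, others 18.2 to 24.1), Atf3 (771, others 334 to 455), Ppp1r15a (761, others 329 to 416), Bnip3 (6600, others 2240 to 3138) and Nampt (17497, others 7433 to 10280). Control mouse 2 had the highest Bhlhe41 (366, others 182 to 230), and in the BAT-Mcu-KO group mouse 3 did (214, others 111 to 144).

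Among BAT-Mcu-KO mice, mouse 4 had the highest Ehhadh (20519, others 5540 to 9910) and the lowest median of the citrate cycle genes relative to the control mean (-0.10 on the log2 scale, others 0.09 to 0.16). Mouse 2 had the highest Aars (1135, others 833 to 934), mouse 1 the highest Map1lc3b (4540, others 3577 to 3842) and mouse 5 the lowest Psma4 (732, others 829 to 875).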

How the results depend on the processing

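The number of genes called at 4°C, 11 by limma, was 23 by DESeq2 (11 higher and 12 lower, all 11 among them), 6 by edgeR, 7 without a variance trend, 2 with only the 2 groups at 4°C in the fit, and 2 to 16 when mice were left out, with 2 after removal of control mice 2 and 5, an alternative chosen after seeing the data. At RT DESeq2 called 20 genes in place of 7 (5 to 8 when mice were left out). For the interaction DESeq2 called 28 in place of 0, and the count was 0 to 1 when mice were left out, with 1 gene called without control mouse 1. A replicate block left 7 calls at 4°C, all among the 11 (not Mthfd2, Btc, S1pr5 and Tram2, at adjusted p-values of 0.0568 to 0.118), and in the 2 groups alone it gave 5, 3 of them among the 11. Same-numbered mice of the 2 genotypes did not deviate together throughout (correlations of 0.0042 to 0.427 in 5 pairs at 4°C and a mean of -0.089 at RT), and 2 of the 5 at 4°C correlated best with their own number. The log2 fold change of Ucp1 lay between -0.11 and 0.011 when mice were left out, turning sign without control mouse 5, and that of Micu2 turned to 0.065 without control mice 2 and 5. Of the other values of named genes under alternatives 1969 kept direction and call, 83 lost a call and 22 gained one. Most of the 1969 are of genes not called with all mice, and only the 11 called genes could lose a call. Their losses ran from 1 of 24 alternatives (Mcu) to 16 of 23 (Tram2). The medians of the lists moved by more than the spread of the control mice in 25 of 1488 cases. The cause of these changes was not tested. Depth limits genes of few reads, such as Wdr66 (1 to 16 reads per mouse at 4°C) and Slc7a11 (0 to 15).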
